A study of Mus musculus with 11 samples.

Results

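The miR-466 and miR-297 families are groups of near-identical mouse microRNA (miRNA) genes, most of which lie in tandem inside an intron of Sfmbt2. Members were every row of the deposited small RNA table whose name starts with Mir466 or Mir297 with no further digit. They were 31 of 3859 rows, 26 of miR-466 and 5 of miR-297. Small RNA was sequenced in 11 mouse libraries, 1 per stage, so no stage had a replicate. The stages were uninduced embryonic fibroblasts (MEF), days 1 to 8 after doxycycline, an induced pluripotent stem cell (iPSC) line kept for several passages and a line of embryonic stem cells (ESC). The labels give Mbd3f/- for all 11 libraries: 1 allele of Mbd3 is deleted and the other is flanked by loxP sites, and the Mbd3 protein belongs to the repressive NuRD complex. The ESC column of the table is headed V6.5, a name that the design text also gives to wild-type cells, so the ESC genotype is uncertain.

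The fibroblasts were secondary MEF carrying a doxycycline-inducible cassette for Oct4, Klf4, Sox2 and Myc. Reprogramming started in serum with LIF at 5% oxygen. Serum was later exchanged for a serum-free replacement, and LIF was combined with small-molecule blockers of MEK and GSK3 (2i), on day 3.5 by one description and 48 hours after induction by another. Cells of days 3 to 8 and both lines grew on irradiated human foreskin fibroblasts, and MEF and days 1 and 2 did not. Feeders, medium and later days therefore cannot be told apart. The lines were collected from 2i and LIF medium. The part of feeder RNA in the results was not tested.

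A miRNA is cut from a hairpin in a longer primary transcript, and bases 2 to 8 of the mature strand, the seed, pair with target messages. Sfmbt2 encodes a Polycomb group protein with MBT repeats, is imprinted and expressed from the paternal allele in the early embryo and trophoblast, and is required for placental development. Its rodent-specific miRNA array also holds the miR-467 and miR-669 families, and its miRNAs are known from mouse embryonic stem cells and placenta. Many of its hairpins are near-identical, so that a read of mature length can match several copies.

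RefSeq sequences (GRCm38.p6) were found for 4 of the 31 members, all of them outside Sfmbt2, and they are shown for the short repeats that these hairpins carry. Capitals mark the seed, 5′ to 3′. Each of the 3 seeds was found in 0 other mature entries of the table used, but that table lacks most members. Whether other copies share these seeds could therefore not be seen.
mmu-miR-466k: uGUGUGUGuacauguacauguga
mmu-miR-466j: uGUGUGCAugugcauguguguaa
mmu-miR-466i-3p: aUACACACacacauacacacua
The hairpin of Mir297-1, on the minus strand of chr7:10958437-10958512, is printed without capitals.
Mir297-1: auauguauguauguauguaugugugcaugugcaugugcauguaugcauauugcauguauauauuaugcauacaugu
The hairpin of Mir466k, on the plus strand of chr3:85467377-85467498, is the longer of both.
Mir466k: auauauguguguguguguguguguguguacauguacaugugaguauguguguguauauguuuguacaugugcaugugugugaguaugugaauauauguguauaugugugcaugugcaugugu
UG or GU steps made up 59.1% of the steps between bases in miR-466k and 63.6% in miR-466j, against a median of 14.3% over 1738 mature mouse miRNAs. In miR-466i-3p they made up 0%, and AC or CA steps made up 71.4%, against a median of 10%. The hairpins held 37.3% (Mir297-1) and 57.9% (Mir466k) UG or GU steps, against a median of 15.4% over 1005 hairpins.

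Of the 31 members, 26 lay inside Sfmbt2 on the plus strand, between chr2:10466663 and 10517164. These 26 lay in 1 intron, chr2:10461473-10523944, counted as intron 10 in an isoform of 23 exons and as intron 11 in another, and none overlapped a host exon. The 5 others lay elsewhere. Mir297-1 was on chromosome 7, Mir466k on chromosome 3 inside Gm37240 on the opposite strand, Mir466j at chr10:60960723-60960844, Mir466i at chr13:17747473-17747593 inside Cdk13 on the opposite strand and outside its exons, and Mir466f-4 at chr13:71107089-71107209.

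Since the members inside Sfmbt2 share a host gene, the 300 bases round its first annotated start in RefSeq are shown, chr2:10370201-10370500, plus strand, with the only match to a searched motif in capitals (ACAAAG, the core bound by Sox proteins).
Sfmbt2: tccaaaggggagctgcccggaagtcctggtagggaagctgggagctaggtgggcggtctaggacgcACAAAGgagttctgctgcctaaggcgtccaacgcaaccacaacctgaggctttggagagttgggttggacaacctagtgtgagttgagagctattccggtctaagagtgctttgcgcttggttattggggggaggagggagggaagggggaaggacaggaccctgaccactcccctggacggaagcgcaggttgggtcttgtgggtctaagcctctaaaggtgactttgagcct
ACAAAG was searched on both strands and lay in 18.7% of 32851 mouse promoter windows of this length. The octamer ATGCAAAT (1.74% of windows), GGGTG (57.5%) and CACGTG (7.15%) had 0 matches here, and all 4 motifs had 0 matches in a window at a second start, chr2:10372186-10372485. A match is a description of the letters and not of binding.

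The miR-466 family climbed from MEF to day 6 and then dropped. The values are FPKM, fragments per kilobase of transcript per 1000000 mapped fragments, as deposited. Summed over 26 rows, FPKM was 6820, 16319 and 41098 in the feeder-free stages MEF, day 1 and day 2. It was 89720 on day 3, 161348 on day 4, 174117 on day 5 and 276917 on day 6. It then read 68295 on day 7 and 52165 on day 8, with 56948 in iPSC and 107728 in ESC. Day 6 was thus 40.6 times MEF, 4.86 times iPSC and 2.57 times ESC, so the highest library of the course was above both pluripotent lines. The climb began before feeders: day 1 was 2.39 times MEF and day 2 was 2.52 times day 1, and the step to day 3, the first stage on feeders, was 2.18-fold.

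The miR-297 family followed the same course at a lower level. Its 5 rows summed to 563, 1194 and 2516 FPKM in MEF and on days 1 and 2. They summed to 4602, 8564, 10007 and 14052 FPKM on days 3, 4, 5 and 6. The sums on days 7 and 8 were 5266 and 5081, and those of iPSC and ESC were 3877 and 7396. Day 6 was 25 times MEF, and day 1 was 2.12 times MEF. The drop after day 6 was smaller than in miR-466, 2.77-fold to day 8 against 5.31-fold.

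**Figure D1:**
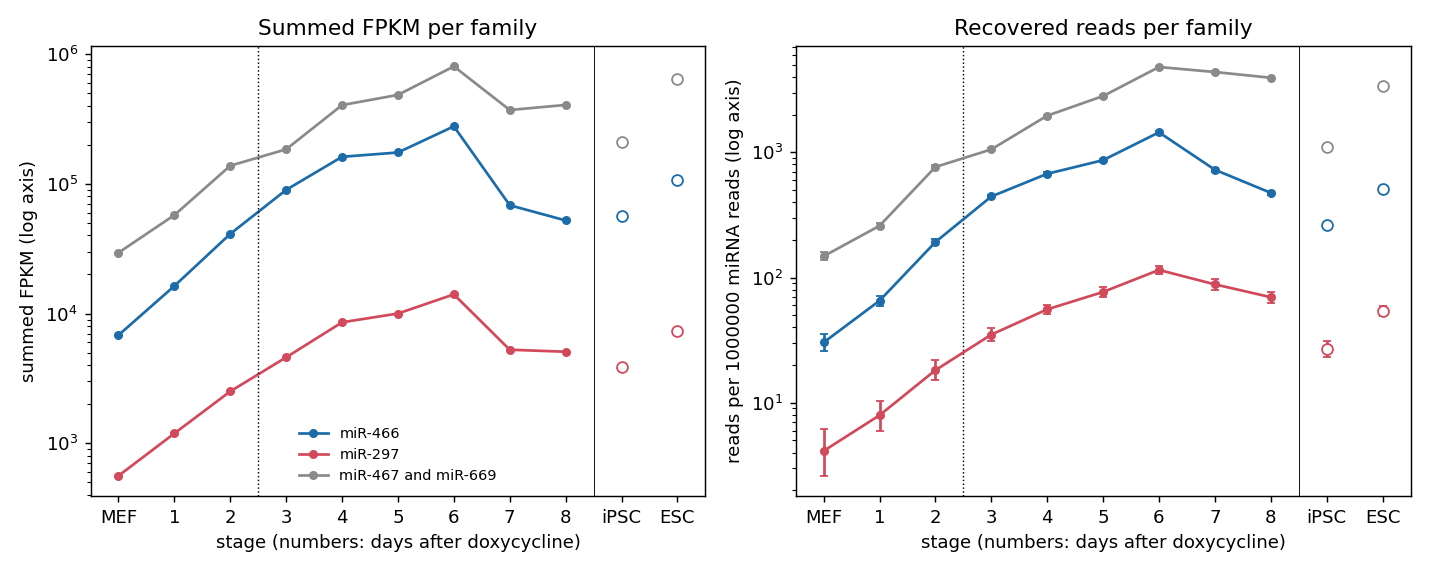
Left, FPKM summed over the rows of each family in each library (log axis); right, recovered reads per 1000000 miRNA reads with 95% Poisson intervals (log axis); the dotted line marks the first stage on feeders and open points are the lines. Both member families are highest on day 6, and miR-466 falls from 276917 to 52165 FPKM by day 8, while miR-467 and miR-669 lose less.

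The depth behind these sums was recovered from the steps between low values of other short transcripts. It gave whole reads, within 0.05 read, for 91.4% of 4704 such values. The depth was chosen to make these values whole, so that share is not a check. For the members, which were left out of that fit, 28 of 28 low values were whole, where chance gives 10%. The read numbers rest on an assumed fragment length. The miR-466 rows held 169 reads in MEF, 8966 on day 6, 3331 on day 7, 2432 on day 8, 1875 in iPSC and 4257 in ESC, and the miR-297 rows held 23, 714, 405, 357, 192 and 451. In MEF, 11 of the 31 members were at 0, and a count of 0 allows up to 3 reads. Intervals below cover counting error only, since reads amplified by PCR are not independent molecules.

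Days 7 and 8 stood apart in the share of mapped reads that the deposited rows held. The table's rows took up 22.7% and 27.7% of the implied mapped reads there, against 45% to 59.2% in the other 9 libraries, and FPKM is scaled to all mapped reads. Per 1000000 miRNA reads, miR-466 was at 30.3 (95% Poisson interval 25.9 to 35.2) in MEF, 1445 (1416 to 1476) on day 6, 726 (701 to 751) on day 7 and 475 (456 to 494) on day 8. On that scale day 6 was 47.7 times MEF (counting interval 41 to 55.5), 1.99 times day 7 and 3.05 times day 8. The miR-297 family was at 4.12 (2.61 to 6.19) in MEF, 115 (107 to 124) on day 6, 88.2 (79.9 to 97.3) on day 7 and 69.7 (62.6 to 77.3) on day 8. Its day 6 value was then 27.9 times MEF (18.4 to 42.3) and 1.65 times day 8. The direction of the drop held on both scales, and its size depended on the scale. On day 8, miR-466 was 2.07 times lower than in ESC by FPKM and 1.08 times lower per miRNA read, so the distance from ESC also depended on the scale. The direction itself turned for miR-297, which on day 8 was 0.687 times ESC by FPKM and 1.28 times ESC (counting interval 1.11 to 1.47) per miRNA read. It also turned for miR-466 against iPSC, with ratios of 0.916 by FPKM and 1.81 (1.7 to 1.92) per miRNA read.

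The labels were checked on other miRNAs. A fibroblast list (miR-21, miR-143, miR-145, miR-199 and miR-214, 7 rows) summed to 25200000 FPKM in MEF, 11300000 on day 8, 6000000 in iPSC and 26300000 in ESC. A list of 11 pluripotency rows (miR-290 and miR-302 clusters) summed to 21400 FPKM in MEF, 43100000 on day 6, 46900000 on day 8, 21900000 in iPSC and 17700000 in ESC. Mir143 was listed at 0 in MEF and made up 17300000 of the ESC sum. The other 6 fibroblast rows summed to 25200000 in MEF, 3900000 on day 8, 2070000 in iPSC and 8980000 in ESC. Mir295 was listed at 0 in both lines, where relatives were abundant. It had 3.2211e+07 FPKM on day 6 and 3.12016e+07 on day 8, most of the pluripotency sums of these days. Those sums therefore cannot be ranked against the sums of the lines. The part of fibroblasts in the members' values was not tested. In bulk libraries, more cells with a miRNA and more of it per cell cannot be told apart.

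Within the miR-466 family, 1 gene took the most reads in each of the 11 libraries. Mir466n (ENSMUSG00000077991, chr2:10513741-10513834) had 744 FPKM in MEF, and 1439, 4028, 7783 and 14874 on days 1 to 4. It had 15697 on day 5, 27815 on day 6, 7979 on day 7, 6323 on day 8, 5541 in iPSC and 10139 in ESC. Its reads went from 24 in MEF to 1139 on day 6. The gene listed plainly as Mir466 (chr2:10507918-10507990) came next by mean FPKM, with 968 in MEF, 1499 and 3454 on days 1 and 2, and 6477, 13792, 15393 and 23500 on days 3 to 6. It fell to 5540 and 3893 on days 7 and 8, with 3578 in iPSC and 6521 in ESC. At 73 nt Mir466 is the shortest member, and FPKM gives 1 read more weight in a shorter hairpin. By reads on day 6, Mir466 (464) was not second and lay below Mir466d (611) and Mir466c-2 (591), among others. Day 6 was 37.4 times MEF for Mir466n and 24.3 times for Mir466, the smallest such ratio among the miR-466 genes that had reads in MEF.

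The 8 copies of Mir466b differed widely in MEF, where they held 4 to 14 reads each, and less in the later libraries. Their FPKM ranged from 151 to 494 in MEF, 14845 to 20119 on day 6, 2207 to 3709 on day 8, 2892 to 3980 in iPSC and 5495 to 6946 in ESC. On day 6 they held 443 to 552 reads each. Mir466b-2, the highest by mean, had 417 FPKM in MEF and 20119 on day 6. Mir466b-5 had the largest ratio of day 6 to MEF, 104, which rests on 4 reads in MEF. How the authors shared reads among matching loci is not given in the sources used here, so values of single copies are uncertain and the family sums are the safer measure.

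**Figure D2:**
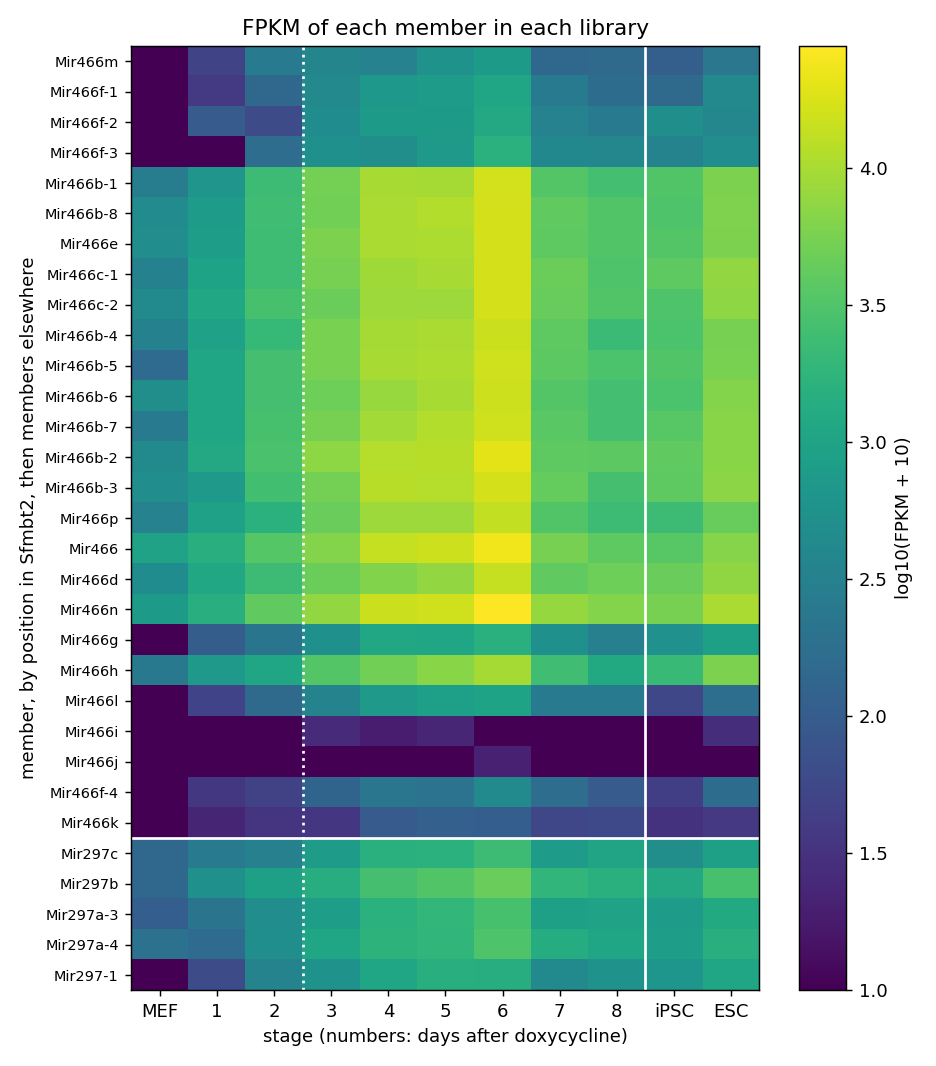
Colour gives log10(FPKM + 10) of each of the 31 members (rows, by position in Sfmbt2 and then elsewhere) in each of the 11 libraries (columns); the dotted line marks the first stage on feeders and the horizontal line separates miR-466 from miR-297. The column of day 6 is the brightest for 27 of the 29 tested members within the course, and the rows of Mir466f, Mir466m, Mir466g, Mir466l and Mir466k stay low.

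Level differed along the intron. The 4 members nearest the 5′ end, Mir466m, Mir466f-1, Mir466f-2 and Mir466f-3, lay 96.2 to 101.4 kb from the start of Sfmbt2, were at 0 in MEF, and had 749 to 1563 FPKM (22 to 64 reads) on day 6. The 13 members from Mir466b-1 to Mir466 had 13275 to 23500 FPKM (443 to 591 reads) on day 6. The last 9, which hold 4 of the 5 miR-297 genes, ranged from 985 FPKM (Mir466l) to 27815 FPKM (Mir466n) on day 6. By reads they ranged from 39 (Mir466g) to 1139 (Mir466n) on day 6, and Mir466l had 88. FPKM gives 1 read more weight in a shorter hairpin. On day 6, 1 read was worth 11.2 FPKM for Mir466l (121 nt) and 39.1 FPKM for Mir466g (80 nt). These 3 stretches were drawn after the levels were seen and have no test. The 5 members outside Sfmbt2 had at most 1407 FPKM (Mir297-1) on day 6 and 0 reads in MEF, and Mir466j and Mir466i never held more than 1 and 2 reads in a library.

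**Figure D3:**
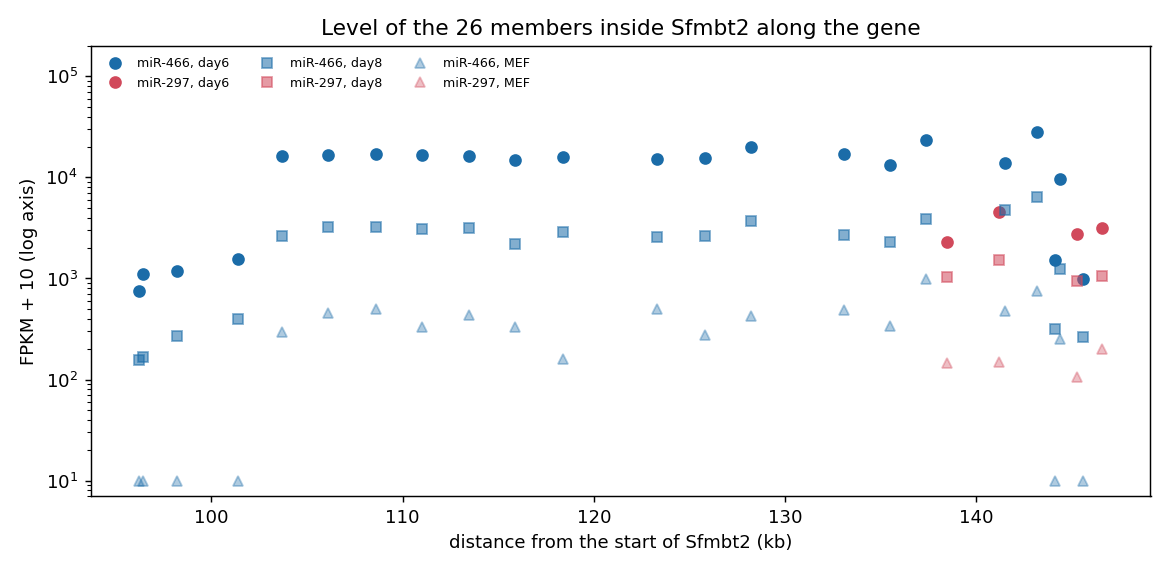
FPKM + 10 (log axis) of the 26 members inside Sfmbt2 in the libraries of MEF (triangles), day 6 (circles) and day 8 (squares) against distance from the start of the gene in kb. The 4 members nearest the start are low at each of these stages, and Mir466n, 143.2 kb along, is highest on day 6.

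The trend over the course was tested for 29 members, as Mir466i and Mir466j fell under the minimum mean of 10 FPKM. A slope per day was fitted with limma to log2(FPKM + 10) over the 9 libraries from MEF (day 0) to day 8, across all 1419 transcripts tested, with Benjamini-Hochberg adjustment over them. With 1 library per stage, p measures scatter round the trend and not the spread between cultures. Near-identical copies can match the same reads, so counts of members here and below are not counts of independent observations. Over all transcripts, 12.5% rose and 10.6% fell. In the miR-466 family, 2 of 24 rose and 0 fell, and 19 had an unadjusted p under 0.05 (36.3% of all transcripts). All 24 slopes were above 0, with a median of 0.41 log2 units per day against 0.02 over all transcripts. Mir466f-3 rose by 0.73 ± 0.21 (SE) per day (adjusted p = 0.0328) and Mir466d by 0.41 ± 0.13 (adjusted p = 0.0455). Mir466d is named here because it is the only other call. Leaving out day 8 gave 21 rising members (142 of all 1419 transcripts). Leaving out MEF, day 1, day 5 or day 6 gave 0 (93 to 150 of 1419).

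In the miR-297 family, 4 of 5 rose and 0 fell (12.5% and 10.6% of all transcripts), with a median slope of 0.41. Mir297a-4 rose by 0.41 ± 0.12 (adjusted p = 0.0391), Mir297c by 0.38 ± 0.12 (adjusted p = 0.0439), Mir297a-3 by 0.42 ± 0.13 (adjusted p = 0.0455) and Mir297b by 0.41 ± 0.13 (adjusted p = 0.0498). The slope of Mir297-1 was 0.62 ± 0.20 (adjusted p = 0.0558) and missed the threshold. Leaving out day 8 gave 5 rising members (142 of all 1419 transcripts). Leaving out MEF, day 1, day 2, day 5 or day 6 gave 0 (93 to 159 of 1419). Each of these courses had its highest value inside the range of days and not at its end.

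The peak was described by 2 further fits, chosen with it known. Over the 7 libraries from MEF to day 6, all 24 tested miR-466 members and all 5 miR-297 members rose (12.8% of all transcripts), with median slopes of 0.91 and 0.77 per day against 0.13 over all transcripts. Leaving out each of these 7 libraries in turn gave 23 to 24 and 5 rising members (110 to 183 of all 1419 transcripts). Mir466n rose by 0.87 ± 0.10 per day (adjusted p = 0.00354), Mir466 by 0.80 ± 0.09 (adjusted p = 0.00354) and Mir297b by 0.77 ± 0.11 (adjusted p = 0.00361). A limma F-test of day and day squared over 9 libraries called all 29 members (32.6% of all transcripts). Its squared term alone was negative, the sign of a course that bends downward, and passed in 23 of 24 and 3 of 5 (10.4% of all transcripts). Mir466k and the miR-297 genes Mir297c and Mir297a-4 did not pass.

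**Figure D4:**
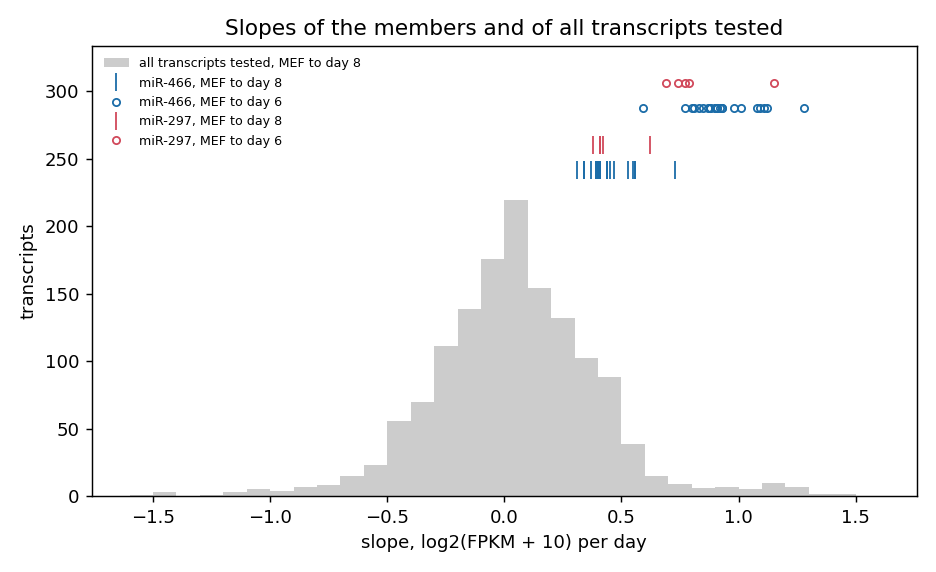
Histogram of the limma slope, log2(FPKM + 10) per day from MEF to day 8, over 1419 transcripts, with the slopes of the 29 tested members as ticks (same fit) and circles (MEF to day 6). All member slopes lie above 0, and the medians move from 0.41 to 0.91 (miR-466) and from 0.41 to 0.77 (miR-297) when days 7 and 8 are left out.

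The low members moved in the same direction with few reads. Mir466f-3 had 0 FPKM in MEF and on day 1, 158 on day 2, 534, 491, 716 and 1563 on days 3 to 6, 394 and 384 on days 7 and 8, 339 in iPSC and 485 in ESC. Day 6 was at least 16.8-fold higher than MEF, taking 3 reads as the MEF floor. Mir466g and Mir466f-2 were also at 0 in MEF and reached 1529 and 1172 FPKM on day 6, at least 10.3-fold and 12.6-fold higher. Among the members outside Sfmbt2, Mir466f-4 went from 0 to 437 FPKM on day 6 (39 reads) and Mir466k had its highest value on day 5, 102 FPKM (8 reads). On day 6 Mir466k had 98.2 FPKM (9 reads). Mir466k had the lowest slope of the family, 0.31 ± 0.11 (adjusted p = 0.0651).

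Among the miR-297 genes, Mir297b (chr2:10511667-10511775) was the highest. It had 138 FPKM in MEF, 531 and 888 on days 1 and 2, 1382, 2714, 3227 and 4492 on days 3 to 6, 1839 and 1523 on days 7 and 8, 1170 in iPSC and 2725 in ESC. Mir297a-4, Mir297a-3 and Mir297c reached 3145, 2746 and 2262 FPKM on day 6, from 191, 96.8 and 137 in MEF. Mir297-1 went from 0 in MEF to 1491 on day 5 and 1407 on day 6. Its day 6 value was at least 8.18-fold higher than MEF, and it was the only miR-297 gene with its FPKM peak on day 5. By reads it had 28 on day 5 and 31 on day 6.

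On day 6, 23 of 24 tested miR-466 members and 4 of 5 miR-297 members had their highest value of the course (15.8% of all transcripts), and the others, Mir466k and Mir297-1, peaked on day 5 (4.37% of all transcripts). By reads, Mir466k had 8 on day 5 and 9 on day 6, and Mir297-1 had 28 and 31. Scaled to miRNA FPKM, 24 of 24 and 4 of 5 members were highest on day 6 (180 of all 1419 transcripts). All 29 were higher on day 6 than on day 7 (72.2% of all transcripts). The same held for all 29 after quantile normalization (667 of all 1419 transcripts) and when scaled to miRNA FPKM (684 of 1419). Day 6 was at least 4-fold above day 8 in 20 of 24 miR-466 members and in 0 of 5 miR-297 members. The share was 14.9% of all transcripts and 201 of 895 miRNA transcripts. With each library scaled to its summed miRNA FPKM, that miR-466 count fell to 2 of 24 (8.32% of all transcripts), and after quantile normalization it was 15 (10.9%). From day 7 to day 8, 3 of 24 miR-466 members increased, Mir466m, Mir466d and Mir466k, as did 3 of 5 miR-297 members, Mir297c, Mir297a-3 and Mir297-1 (66.8% of all transcripts). Mir466m and Mir466k had 6 reads and Mir297a-3 had 69 reads on both days, and scaled to miRNA FPKM only Mir466d, Mir297c and Mir297-1 were higher on day 8 (54.4% of all transcripts). Mir466d went from 3961 to 4788 FPKM and from 257 to 292 reads, while Mir466n went from 486 to 362 reads.

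Values of days 3 to 8 all lay above those of MEF, day 1 and day 2 in 21 of 24 miR-466 members and 5 of 5 miR-297 members (9.16% of all transcripts). The miR-466 exceptions were Mir466m, Mir466b-6 and Mir466b-7. The stages of this split differ in feeders as well as in time. Within days 3 to 8, 0 members passed the limma slope test and 0 had an unadjusted p under 0.05 (31.9% of all transcripts). The slopes there were below 0 in 28 of 29 members, down to -0.29 per day. Over all 1419 transcripts, 591 slopes there were above 0. The median slopes there were -0.21 (miR-466) and -0.02 (miR-297), against -0.10 over all transcripts, of which 4.65% rose and 5.64% fell. With a term for feeders in the 9-library fit, 0 members passed, 0 had an unadjusted p under 0.05 (23.6% of all transcripts), and 2.54% of all transcripts rose.

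The neighbouring miR-467 and miR-669 families (47 rows, 42 tested) also climbed to day 6, with steps of other sizes and a smaller drop. From day 2 to day 3 their summed FPKM rose 1.34-fold, against 2.18-fold in miR-466 and 1.83-fold in miR-297. From day 3 to day 4 it rose 2.19-fold, against 1.8-fold and 1.86-fold. Their summed FPKM was 27.2 times MEF on day 6 and 1.98 times lower on day 8 than on day 6, or 1.22 times lower per miRNA read. In the slope test to day 8, 38 of 42 rose (12.5% of all transcripts). By FPKM, 0 of 42 were 4-fold or more lower on day 8 than on day 6, against 20 of 24 for miR-466. Among all transcripts this held for 14.9%, and among miRNA transcripts for 201 of 895. Scaled to miRNA FPKM, the counts were 0 of 42 against 2 of 24 (8.32% of all transcripts, 111 of 895 miRNA transcripts). The median log2 difference of day 6 over day 8 was 2.41 in miR-466, 1.53 in miR-297 and 1.23 in the neighbours. It was 0.29 over all transcripts and 0.94 over the miRNA transcripts. Scaled to miRNA FPKM, these medians were, in the same order, 1.65, 0.78, 0.48, -0.16 and 0.20.

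A ratio within each library does not depend on that scaling. Reads of the 31 members per 100 reads of miR-467 and miR-669 were 23.2 (exact binomial 95% interval 19.7 to 27.2) in MEF, 28.2 (25.5 to 31.2) on day 1 and 27.5 (25.8 to 29.2) on day 2. They were 45.4 (43.7 to 47.1) on day 3, 37.2 on day 4, 33.5 on day 5 and 32.5 (31.7 to 33.2) on day 6. They then dropped to 18.6 (17.9 to 19.2) on day 7 and 13.8 (13.3 to 14.4) on day 8. The iPSC library had 26.2 (25 to 27.5) and the ESC library 16.7 (16.2 to 17.3). The members thus held the largest portion relative to their neighbours on day 3 and the smallest on day 8, with intervals that do not overlap. Whether cultures differ as much is unknown with 1 library per stage. Within the members, miR-297 took 12% (7.75 to 17.4) of reads in MEF, 7.38% (6.86 to 7.91) on day 6 and 12.8% (11.6 to 14.1) on day 8.

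**Figure D5:**
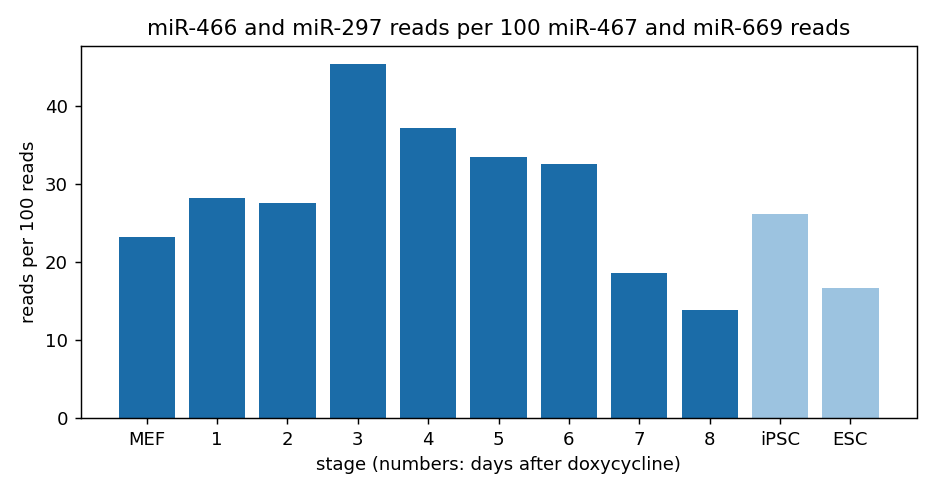
Bars give reads of the 31 miR-466 and miR-297 members per 100 reads of the 47 miR-467 and miR-669 rows in each library; the lines iPSC and ESC are in the lighter colour. The ratio is highest on day 3 at 45.4 and lowest on day 8 at 13.8.

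Both lines were above MEF. FPKM + 10 was at least 4-fold higher in iPSC and in ESC than in MEF for 22 of 24 miR-466 members and 4 of 5 miR-297 members (29.7% of all transcripts). The family sums in iPSC were 8.35 times MEF for miR-466 and 6.89 times for miR-297, and in ESC 15.8 and 13.1 times. The median log2 differences from MEF were 3.14 in iPSC and 4.07 in ESC for miR-466, and 2.88 and 3.54 for miR-297, where all transcripts tested had medians of 1.36 and 0.98. Quantile normalization moved the medians of all transcripts to -0.11 and -0.10. On that scale 7 of 24 and 1 of 5 members passed 4-fold in both lines (15.2% of all transcripts). The direction held on that scale for 28 of the 29 members (574 of all 1419 transcripts).

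Between the lines, ESC was above iPSC in 23 of 24 miR-466 members and 5 of 5 miR-297 members (36.4% of all transcripts). The exception was Mir466f-2, with 508 FPKM in iPSC and 384 in ESC, or 21 and 19 reads. After quantile normalization all 29 members were higher in ESC (652 of all 1419 transcripts). On FPKM + 10, 0 members differed by 4-fold (7.12% of all transcripts were that much higher in ESC), and the family sums differed 1.89-fold for miR-466 and 1.91-fold for miR-297. The neighbours differed 3.09-fold in the same direction. All 7 fibroblast rows were also higher in ESC than in iPSC, by 3.66-fold to 16.5-fold, and their part in this difference was not tested. No test was possible with 1 library per line.

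Some table rows are copies of these families under other names. The row Mir4660 is Mir466o in GENCODE and RefSeq (chr2:10472540-10472623), inside the same intron, and had 0 FPKM in MEF, 7286 on day 6, 1291 on day 8, 1923 in iPSC and 2985 in ESC. Outside the named families, the transcripts whose log2(FPKM + 10) over 11 libraries was most like the miR-466 sum were Gm25943 (Pearson r 0.995), Gm25285 (0.990), Gm24114 (0.971), Gm23087 (0.956) and Mir499 (0.955). RefSeq gives Gm25285 the synonym Mir466c-3 (chr2:10491336-10491425) and names Gm24114 Mir297a-2 (chr2:10472254-10472343). Gm25943 (chr2:10501109-10501198) lies in the same intron. Gm23087 is on chromosome 7, as is Mir297-1. Mir499 is elsewhere on chromosome 2 (chr2:155622880-155622958), and had 722 FPKM in MEF, 96873 on day 6 and 13516 in ESC. For the miR-297 sum the closest were Gm25285 (0.982), Gm23087 (0.979), Gm25943 (0.979), Gm25022 (0.972) and Gm26092 (0.971), of which all but Gm23087 lie in the intron. These values share libraries and depth and are a description of 11 libraries. Adding Mir4660 and Gm25285 to miR-466 and Gm24114 to miR-297 gave ratios of day 6 to MEF of 42 and 24.5.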

How the data were processed

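Small RNA libraries (TruSeq small RNA kit, gel size selection, per the labels' protocols) were measured in 11 stages, 1 library each. The deposited table gives FPKM computed by the authors. Cufflinks 2.2.1, CASAVA 1.8.2, Bowtie2 2 and build mm10 appear in the submitters' processing notes without roles. What annotation was used, how the table was filtered and how multi-matching reads were treated is not given in the sources used here. Of 31 members, 28 were found by ID in GENCODE vM21 (GRCm38) and 3 were placed from RefSeq (GRCm38.p6).

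Values were analysed as log2(FPKM + 10), which understates changes of low transcripts. Slopes were fitted with limma 3.58.1 (R 4.3.3; 7 residual and 2.53 prior degrees of freedom, two-sided) over transcripts with a mean of at least 10 FPKM, and called at an adjusted p under 0.05. The script was checked on simulated data. Reads were recovered with an assumed fragment length of 200 ± 80 nt, implying 11600000 (MEF) to 21900000 (day 7) mapped reads and 4590000 to 9560000 reads in miRNA rows. No count test was run. Comparisons of single libraries have no test.

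The members and lists were chosen with earlier results of these data known. Named were, per family, the 5 members with the highest mean, the 3 highest and 3 lowest slopes, members outside Sfmbt2 with a mean of at least 10 FPKM, and the 5 other transcripts most correlated with the sum. Alternatives were the pseudocount, filter, scaling, feeders, stages and leaving out each library.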

Additional observations from a re-analysis of the deposited data

How the results depend on the processing

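Of 24 tested miR-466 members, 2 rose, and the count was 1 with a pseudocount of 1 or 100, 0 with no filter, 6 with a mean of at least 100 FPKM, 7 after quantile normalization, 23 scaled to miRNA FPKM, 0 within days 3 to 8, 0 with a feeder term, 24 without days 7 and 8, and 0 to 21 without 1 library in turn. The miR-297 count, 4 of 5, was 0 with a pseudocount of 1, with no filter, within days 3 to 8 and with a feeder term, and 0 to 5 without 1 library. The median slope of miR-466 (0.41) was 0.53 scaled to miRNA FPKM, -0.21 within days 3 to 8, -0.04 with a feeder term, 0.91 without days 7 and 8, and 0.26 to 0.62 without 1 library. For miR-297 (0.41) these were 0.53, -0.02, 0.09, 0.77 and 0.30 to 0.56. Within days 3 to 8 the slopes of 28 of 29 tested members were below 0, down to -0.29, where all 29 were above 0 over the course. Over all 1419 transcripts, 591 slopes were above 0 within days 3 to 8 and 782 over the course. The members named next are a part of these 28. Of the members that rose over the course and are named by the rule, those below 0 within days 3 to 8 were Mir297b (-0.01), Mir297a-3 (-0.02), Mir297c (-0.02), Mir297a-4 (-0.00) and Mir466f-3 (-0.06). After quantile normalization, 7 miR-466 and 1 miR-297 members were 4-fold higher in both lines than in MEF, against 22 and 4 as deposited. Over all transcripts the shares were 15.2% and 29.7%. Over all transcripts, 177 rose and 150 fell as deposited, and 314 and 114 when scaled to miRNA FPKM. With a pseudocount of 1 or 100, 159 and 153 rose. With no filter 147 of 2120 rose, and 154 of 932 with a mean of at least 100 FPKM. After quantile normalization 183 rose, within days 3 to 8 66, with a feeder term 36, without days 7 and 8 181, and without 1 library 93 to 175. The cause of these changes was not tested. From MEF to day 6, 23 to 24 and 5 members rose under each scaling and without each library (110 to 191 of all 1419 transcripts). The F-test, which has no direction, called 24 and 5 (32.6% of all transcripts). That set and the F-test were chosen after seeing the data. No paired analysis was possible because each stage has 1 library. Fewer than 30 reads in MEF limit single members there.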
